A study of Mus musculus with 42 samples.

Results

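Gli1+ stromal cells sorted from the distal colon were compared between mice in which tamoxifen deleted Alk3 in these cells and mice that kept the gene. The comparison holds 4 of the 42 RNA-seq libraries of the series, 2 labelled GWTT-Distal and 2 labelled GA3T-Distal, taken by their labels. GWTT libraries came from Gli1-CreERT2;Rosa26-tdTomato control mice, and GA3T libraries from Gli1-CreERT2;Alk3 fl/fl;Rosa26-tdTomato mice. Mice of both genotypes carried the Gli1-driven, tamoxifen-inducible Cre and the tdTomato reporter, and all received 100 µl of tamoxifen at 20 mg/ml a day for 5 days. Cells positive for tdTomato were sorted by flow cytometry 30 days later, from animals of both sexes that were 2 to 4 months old. Cre acts only where Gli1 is or was active, so cells outside the Gli1 lineage keep Alk3 in both genotypes. Whether each library was made from 1 mouse or from pooled mice is not given by the labels, and p-values therefore measure only the spread between these libraries. The table lists 16286 genes, of which 15414 had a mean normalized read count of at least 10 over the 4 libraries and were tested. A normalized read count is the number of reads on a gene divided by 1 size factor per library.

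Bone morphogenetic proteins (BMPs) are secreted ligands that bind pairs of type I and type II serine/threonine kinase receptors. Alk3, listed here under its gene symbol Bmpr1a, is a type I receptor that phosphorylates Smad1, Smad5 and Smad9, which join Smad4 and activate genes such as the Id family. In the colon, BMP ligands come largely from the mesenchyme at the top of the crypts, antagonists come from the mesenchyme beneath the crypt base, and Gli1 marks mesenchymal cells that receive Hedgehog signal from the epithelium.

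The GWTT libraries held 16770475 and 16772902 reads on genes, and the GA3T libraries held 23686940 and 18136189. Replicates were not copies of each other. The median standard deviation on the log2 scale was 0.128 between the GWTT libraries and 0.191 between the GA3T libraries. GA3T replicate 1 was the only male library of the 4, with Ddx3y at 2074 and Xist at 5.26, and sex can therefore not be told apart from the difference between the GA3T replicates. The tissue entry of the labels names intestinal epithelium, whereas the 20 mesenchymal identity markers were present in every library, for example Col3a1 at 335505 to 454742 and Pdgfra at 21071 to 37401. Transcripts of epithelial cells and leukocytes were present as well. The 25 epithelial markers summed to 2137 and 6311 in GWTT but to 32133 and 13683 in GA3T, with Cdx2 and Ces2a at 0 in GWTT replicate 1. In bulk libraries fewer cells of a type and less RNA per cell cannot be told apart.

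To keep stromal genes apart from the others, each gene was placed on a side by proximal libraries that do not enter the distal comparison. A gene was on the stromal side when its CPM (counts scaled to a common library total) were at least 4 times higher in proximal GWTT stromal cells than in proximal GWTM2 goblet cells (Gli1-CreERT2;Muc2-mCherry), on the epithelial side in the reverse case, and shared otherwise. Leukocyte markers and immunoglobulin and T cell receptor segments formed a separate leukocyte side. Only control libraries set the sides, so a gene nearly silent in control stromal cells could not be on the stromal side, whatever its level in GA3T. Genes low in control stromal cells but present in goblet cells fell on the epithelial side. How far the shares higher and lower on each side follow from this rule was not tested. The stromal side held 2222 tested genes, the shared group 11198, the epithelial side 1533 and the leukocyte side 338.

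Of the 15414 genes limma called 0 with a difference of at least 2-fold and a p under 0.05 after Benjamini-Hochberg adjustment, with a lowest adjusted p of 0.0539 and 158 genes under 0.1. The quasi-likelihood test of edgeR on the recovered reads also called 0, and DESeq2 called 776 (5.03%), of which 612 (3.97%) were higher and 164 (1.06%) lower in GA3T. At an unadjusted limma p under 0.05 and the same fold, hereafter the unadjusted threshold, 1197 genes passed (7.77%), 854 higher (5.54%) and 343 lower (2.23%) in GA3T. These last 2 shares are the background for the gene lists below. Without GA3T replicate 1 limma called 583 genes, 284 higher and 299 lower, and 1699 genes passed the unadjusted threshold, 53.7% of them higher against 71.3% with all 4 libraries. In that fit the lone GA3T library was assumed to vary as the GWTT pair did.

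The genes past the unadjusted threshold were spread unevenly over the sides. On the epithelial side 499 of 1533 genes (32.6%) were higher in GA3T and 5 lower. On the stromal side 91 of 2222 genes (4.1%) were higher and 137 (6.17%) lower, with a median log2 fold change of -0.207 against 0.008 for all tested genes. The leukocyte side had 21 higher and 52 lower of 338, and the shared group 237 higher and 142 lower of 11198. Immunoglobulin and T cell receptor segments were 195 of the 338 leukocyte side genes. They held 47 of its 52 lower genes and 5 of its 21 higher genes. Genes of the epithelial side took 2.09% and 2.24% of the reads in GWTT and 3.62% and 2.83% in GA3T, while those of the stromal side took 38.9% and 36.9% in GWTT and 36.4% and 38.9% in GA3T. Because epithelial reads enter the size factors, the values were also rescaled on stromal side genes alone (a choice made after seeing the data). This raised the median of all genes to 0.185 and turned the stromal side to 130 higher and 69 lower. Such factors level the typical stromal side gene across libraries, so the upward shift was set by the rescaling itself. The stromal side counts also depended on single libraries: 180 higher and 328 lower without GA3T replicate 1, 56 and 75 without GA3T replicate 2, 81 and 79 without GWTT replicate 1, and 60 and 59 without GWTT replicate 2. DESeq2 called 85 stromal side genes higher and 74 lower.

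**Figure D1:**
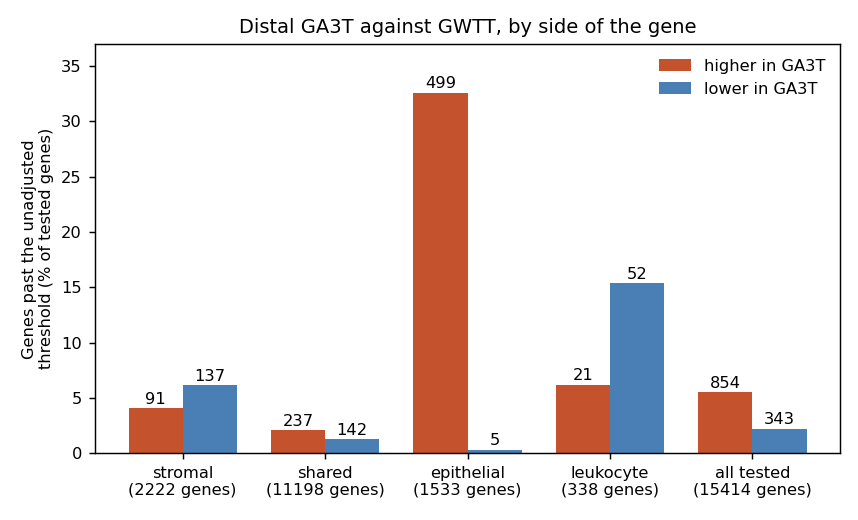
Bars give the percentage of tested genes past the unadjusted threshold (limma unadjusted p under 0.05 and at least 2-fold) in distal GA3T against GWTT Gli1+ cells, by side of the gene, and numbers above the bars are genes. The epithelial side stands apart with 499 of 1533 genes higher, whereas the stromal side has 91 higher and 137 lower of 2222.

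Bmpr1a (chr14:34410734-34503341, mm10, minus strand), the targeted gene, was at 3359 and 3485 in GWTT and at 2203 and 2043 in GA3T. Both GA3T libraries lay below both GWTT libraries, at 0.620 of the GWTT mean (log2 fold change -0.69, SE 0.11; adjusted p = 0.101 in limma, 0.000534 in DESeq2). The files give a total per gene, so reads from the part of Bmpr1a that Cre does not remove are counted too, and the total checks the labels only in part. Smad4, the Smad shared by all BMP and TGF-beta branches, was at 2031 and 1938 in GWTT and 1544 and 1688 in GA3T (log2 fold change -0.30; limma adjusted p = 0.252).

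Of the 14 tested BMP receptors, co-receptors and Smads, Bmpr1a and Smad4 included, 2 were lower in GA3T past the unadjusted threshold and 0 higher, with a median log2 fold change of -0.35. The number lower was 0 without GWTT replicate 1 (median -0.21), and 1 without GWTT replicate 2, without GA3T replicate 2 or after rescaling on stromal side genes (median -0.18). Acvr2a, a type II receptor of activins and BMPs, was at 977 and 869 in GWTT and 486 and 436 in GA3T (-1.0, SE 0.14; limma adjusted p = 0.0947). Smad9, which transmits the BMP signal and is also a BMP target, was at 646 and 691 in GWTT and at 316 and 84.0 in GA3T (-2.03, SE 0.60; limma adjusted p = 0.192). In both genes the groups did not overlap, and for Smad9 the GA3T libraries stood far apart from each other. The type II receptor Bmpr2 (log2 fold change -0.02), the type I receptor Acvr1 (0.03) and the signal transducer Smad5 (-0.05) overlapped between the genotypes.

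BMP ligands divided by gene. Of 10 tested, 3 were higher in GA3T past the unadjusted threshold and 0 lower. Bmp7 was at 2655 and 2634 in GWTT and at 5661 and 7245 in GA3T (1.28, SE 0.15; limma adjusted p = 0.0841). Bmp3, a BMP family member that opposes BMP signaling in bone, was at 1142 and 1136 in GWTT and 2740.2 and 1929 in GA3T (1.01; 0.116). Bmp8b was at 0 in both GWTT libraries, which allows up to 3 reads in each, and at 36.8 and 19.1 in GA3T. It passed the filter on mean count through GA3T alone and could only be counted as higher. With a mean of at least 50, 2 of 9 tested ligands were higher and 0 lower. Bmp4, a main ligand of colonic mesenchyme, was at 15587 and 15203 in GWTT and 12943 and 8881 in GA3T (-0.52; limma adjusted p = 0.29), and Bmp6 was at 7372 and 6541 against 4597 and 3607 (-0.77; 0.133). Both lay lower in the 2 GA3T libraries without reaching 2-fold. The median of the list was -0.01, and 0.17 after rescaling on stromal side genes.

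The median log2 fold change was -0.86 over the 14 tested BMP target genes, 3 lower past the unadjusted threshold and 0 higher. The groups did not overlap in 9 of the 14, all lower in GA3T, where 26.8% of all tested genes did so. The Id genes encode inhibitors of basic helix-loop-helix factors and are direct targets of BMP-activated Smads. Id2 was at 1538 and 1715 in GWTT and at 889 and 623 in GA3T (-1.12, SE 0.20; limma adjusted p = 0.114). Id4 was at 349 and 319 against 162 and 50.0 (-1.88, SE 0.55; 0.191), and Id3 at 5297 and 6425 against 3855 and 2473 (-0.92, SE 0.24; 0.167). In these 3 genes both GA3T libraries lay below both GWTT libraries. Id1 did not separate, with 685 and 909 in GWTT and 829 and 217 in GA3T. Id1 lay on the epithelial side, and the part of epithelial reads in its values was not tested. Of the 14 targets, 13 were lower in GA3T replicate 2 than in replicate 1, and without replicate 1 the number past the threshold was 8 (median -1.12). It was 2 without GA3T replicate 2 (median -0.46), 2 without GWTT replicate 1 and 1 without GWTT replicate 2.

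The promoters of the 3 BMP targets past the unadjusted threshold are shown, and that of Id3, which was also lower but by less than 2-fold. Each is the 250 bases before the transcription start in RefSeq (GRCm38.p6), 5′ to 3′ on the strand of the gene. Capitals mark GGCGCC, a palindrome that BMP-activated Smads are known to bind. Id2 (chr12:25096093-25096342, minus strand), Id4 (chr13:48260866-48261115, plus strand) and Smad9 (chr3:54755332-54755581, plus strand) hold 1 copy each, 231, 148 and 51 bases before the start. The window of Id3 (chr4:136143572-136143821, plus strand) holds 0.
Id2: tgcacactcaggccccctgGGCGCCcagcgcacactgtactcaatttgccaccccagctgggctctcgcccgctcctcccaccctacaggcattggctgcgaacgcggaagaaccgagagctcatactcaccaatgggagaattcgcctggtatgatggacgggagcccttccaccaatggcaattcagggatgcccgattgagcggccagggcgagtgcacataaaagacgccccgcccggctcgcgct
Id4: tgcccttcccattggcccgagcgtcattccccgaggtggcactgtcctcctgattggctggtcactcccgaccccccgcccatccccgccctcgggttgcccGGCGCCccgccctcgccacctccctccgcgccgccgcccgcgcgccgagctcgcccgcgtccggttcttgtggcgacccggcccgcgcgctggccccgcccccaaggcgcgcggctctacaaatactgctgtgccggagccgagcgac
Smad9: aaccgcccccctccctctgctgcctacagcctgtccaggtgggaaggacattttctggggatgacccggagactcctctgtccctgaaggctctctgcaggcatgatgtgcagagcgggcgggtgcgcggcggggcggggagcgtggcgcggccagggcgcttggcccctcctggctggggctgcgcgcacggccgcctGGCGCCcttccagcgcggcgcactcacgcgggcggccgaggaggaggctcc
Id3: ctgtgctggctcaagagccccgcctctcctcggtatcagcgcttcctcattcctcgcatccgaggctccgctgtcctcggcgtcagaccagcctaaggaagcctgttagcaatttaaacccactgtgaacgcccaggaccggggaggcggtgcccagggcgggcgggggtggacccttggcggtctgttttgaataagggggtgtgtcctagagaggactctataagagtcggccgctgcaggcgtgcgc
Of the 14 targets 10 matched a RefSeq window, and 4 of these 10 (40%) held the motif, against 2174 of the 11658 tested genes with a window (18.6%) and 2931 of all 27025 genes with one (10.8%). A gene counted if any of its windows held the motif, as Gata2 did with 1 copy in 1 window and 0 in the other. The windows of Smad6, Atoh8, Msx1, Runx2 and Zfp423, not shown, held 0. A match describes these letters only and is no evidence of binding here.

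Of 15 tested secreted BMP antagonists 0 were higher and 1 lower past the unadjusted threshold (median -0.09). The number higher was 2 in edgeR, in DESeq2 at an unadjusted p, with a replicate block and after rescaling on stromal side genes (median 0.09), and 3 without GA3T replicate 1 (median 0.04). Nog, which encodes noggin, was at 77.0 and 73.8 in GWTT and 33.1 and 29.8 in GA3T (-1.24; limma adjusted p = 0.185), and 0 were lower without GWTT replicate 1 or without GWTT replicate 2. Chrdl2, a chordin-like antagonist, was at 118 and 81.5 in GWTT and 186 and 1793 in GA3T (2.54; 0.276), and Bmper, a secreted protein that binds BMPs, at 288 and 208 against 331 and 880.3 (1.14; 0.289). Neither passed, although both GA3T libraries lay above both GWTT libraries. Grem1, the antagonist of cells beneath the crypts, was at 5307 and 4268 in GWTT and at 3999 and 15939 in GA3T. Its high value came from GA3T replicate 2 alone, and the groups overlapped.

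Of 14 tested Hedgehog genes 13 had a log2 fold change below 0, 2 of them past the unadjusted threshold (median -0.37). After rescaling on stromal side genes the median was -0.20 with 1 lower. Without GWTT replicate 2 there were 3 lower and without GA3T replicate 1 there were 4. Ptch1, the Hedgehog receptor and a target of the pathway, was at 14055 and 17913 in GWTT and at 8096 and 4538 in GA3T (-1.39, SE 0.31; limma adjusted p = 0.139). Gli1 itself (chr10:127329882-127341974, minus strand), the gene that drives Cre, was at 1864 and 1540.1 in GWTT and 792 and 1063 in GA3T (-0.88, SE 0.19; limma adjusted p = 0.133, DESeq2 adjusted p = 0.00648). Neither gene overlapped between genotypes, and the reads of Gli1 may include those of the allele that carries Cre. Boc, a Hedgehog co-receptor, was the member above 0 (0.08).

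On the stromal side Trpa1 (chr1:14872648-14918862, minus strand), a cation channel that senses irritants, was at 166 and 133 in GWTT and at 1428 and 1459 in GA3T (3.27, SE 0.16; limma adjusted p = 0.0539, DESeq2 adjusted p = 1.62e-44). Col6a5 (chr9:105856078-105960643, minus strand), a chain of collagen VI, was at 2290.3 and 2274 against 9506 and 11124 (2.17, SE 0.13; 0.0539 in limma). Vtn, which encodes the adhesion protein vitronectin, was at 52.4 and 52.9 against 435 and 488 (3.11, SE 0.22; 0.0539). In each of these genes the replicates lay close together and the groups far apart, which a choice by lowest p favors. The other 7 of the 10 stromal side genes with the lowest p among those higher were Col23a1 (1.68), Smoc1 (2.43), Colec10 (3.46), Ednrb (1.15), Fbln7 (1.57), Col22a1 (2.49) and Col6a4 (2.06), with limma adjusted p from 0.0606 to 0.0669. They encode collagens, the matricellular BMP modulator SMOC1, a secreted collectin, the endothelin receptor type B and a fibulin.

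On the lower side Pcdh18 (chr3:49743296-49757325, minus strand), a protocadherin, was at 2280.2 and 2175 in GWTT and at 846 and 778 in GA3T (-1.46, SE 0.11; limma adjusted p = 0.0606). Aldh1a2, which makes retinoic acid, was at 1345 and 1603 against 659 and 511 (-1.34, SE 0.17; 0.0866). Fap, the fibroblast activation protease, was at 858 and 900.1 against 431 and 322 (-1.23, SE 0.18; 0.0947). All 3 were lower in both GA3T libraries. Also among the lowest p were Pianp (-1.37), Agtr1a (-1.16), Gabra3 (-1.07), Adgrd1 (-1.05), Reck (-1.05) and Plcl1 (-1.03), with limma adjusted p from 0.0761 to 0.0947. DESeq2 called all 19 of the higher and lower genes named. It used the same reads on which limma p had picked them, so its calls are not separate evidence.

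**Figure D2:**
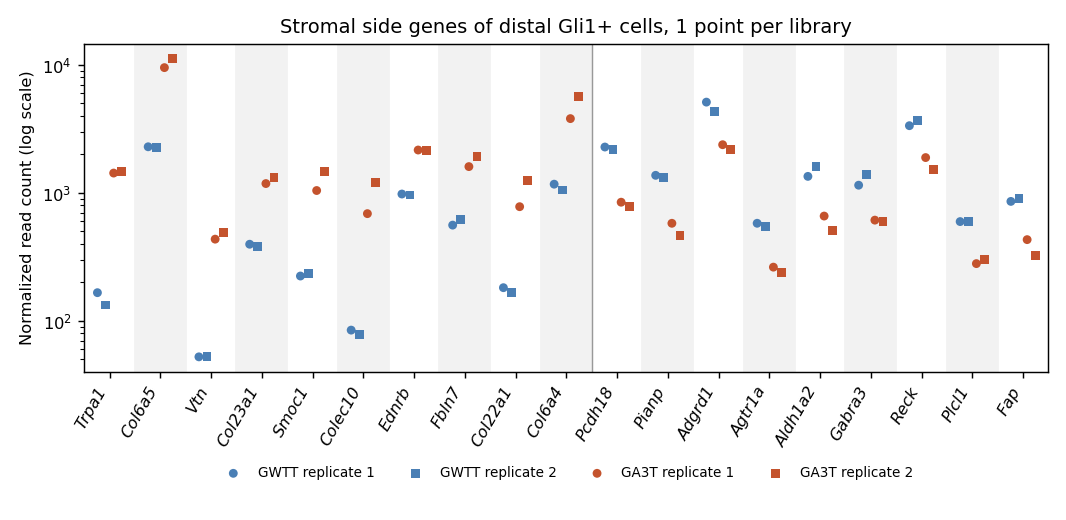
Normalized read counts (log scale) of the 10 stromal side genes with the lowest p among those higher in GA3T (left of the line) and of 9 such genes among those lower (right), 1 point per library. Blue points are GWTT and red points GA3T, and in all 19 genes the GA3T points lie entirely on 1 side of the GWTT points. The genes were chosen by p on these same libraries, which favors such separation.

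Of 38 tested collagens, the fibres and sheets of the extracellular matrix, 8 were higher past the unadjusted threshold and 0 lower (median 0.38, from 0.25 without GWTT replicate 2 to 0.60 without GA3T replicate 1). Besides the collagens above, Col7a1, the anchoring fibril collagen, was at 176 and 108 in GWTT and 1101 and 1252 in GA3T (3.08, SE 0.26; limma adjusted p = 0.0669). Col18a1, a basement membrane collagen, was at 15218 and 12922 against 50160.3 and 114192 (2.43; 0.115). The interstitial fibril collagens Col1a1 (log2 fold change 0.51) and Col3a1 (0.13) overlapped between genotypes, and Col14a1 was lower in both GA3T libraries without reaching 2-fold (-0.91; 0.144).

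Of 29 tested integrins and laminins 10 were higher past the unadjusted threshold and 1 lower (median 0.45). The median was 0.14 without GA3T replicate 2 and 0.69 without GA3T replicate 1. The list mixed sides: 16 members lay on the stromal side and 7 on the epithelial side. Lama1, a laminin chain of basement membranes and a stromal side gene, was at 866 and 957 in GWTT and at 4310.2 and 15772 in GA3T (3.18, SE 0.59; limma adjusted p = 0.116). Lamc3, also stromal, was at 92.6 and 90.3 against 308 and 398 (1.92; 0.0825), and Lama5, a shared gene, at 2749 and 2438 against 6055 and 6928 (1.32, SE 0.13; 0.0669). In all of them the groups were separate. Lamb3 (3.94), Itgb6 (4.44), Itgb4 (2.02), Itga6 (1.75) and Itga3 (1.90) were among the higher members on the epithelial side. Itgb8, a stromal side integrin that activates latent TGF-beta, was at 972 and 1140.2 against 543 and 329 (-1.32; 0.128).

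Of 31 tested matrix proteases and inhibitors 9 were higher past the unadjusted threshold and 0 lower (median 0.35). Without GA3T replicate 2 there were 5 higher with a median of 0.14, and without GA3T replicate 1 the median was 0.71. Mmp10, stromelysin 2, was at 172 and 132 in GWTT and at 1488 and 4608 in GA3T (4.11, SE 0.53; limma adjusted p = 0.0866). Mmp13, collagenase 3, was at 72.5 and 83.7 against 664 and 1817 (3.80; 0.0866). Both are shared genes, and Mmp10 had 0 reads in the proximal goblet cells, which allows up to 3 in each library. Mmp8 (4.21) and Mmp9 (2.91), the neutrophil collagenase and gelatinase B, are on the leukocyte side. Among hyaluronan genes Cemip, which degrades hyaluronan, was at 36.8 and 24.2 against 429 and 2383 (5.03, SE 0.81; 0.103), while the hyaluronan-binding Hapln1 (-2.01) and Itih5 (-1.44) were lower past the unadjusted threshold. Hapln1 was at 779 and 215 in the GA3T libraries and at 1452 and 1877 in GWTT. Without GWTT replicate 1 or without GWTT replicate 2, 0 hyaluronan genes were lower.

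Telocytes and subepithelial myofibroblasts lie against the epithelium, and 7 of their 14 tested markers were higher past the unadjusted threshold with 0 lower (median 0.85, between 0.81 and 1.02 over the alternatives). The 7 include Trpa1 (3.27), named above by its low p, so this count is not separate from that result. Cxcl14, a chemokine of these cells, was at 1878 and 2278 in GWTT and at 8205 and 13288 in GA3T (2.34, SE 0.25; limma adjusted p = 0.0761). Nrg1, an EGF family ligand for the epithelium, was at 808 and 857 against 3757 and 8031 (2.72, SE 0.35; 0.0866). Their transcription factor Foxl1 overlapped, at 1131 and 1125 against 1220 and 1040, as did F3 (0.09). Trophocytes and adventitial fibroblasts lie beneath the crypts and around vessels, and 3 of their 16 tested markers were lower with 0 higher (median -0.29). Cd34 was at 13340 and 12196 against 7379 and 2792 (-1.49; 0.196), Clec3b at 18799 and 18066 against 11888 and 4913 (-1.27; 0.215), and the complement inhibitor Cd55 at 9863 and 8390.2 against 4708 and 3882 (-1.09; 0.0947). The number of lower markers was 0 without GWTT replicate 1 or without GA3T replicate 2, and 1 without GWTT replicate 2. Their median was -0.18 without GWTT replicate 2 and -0.11, with 2 lower, after rescaling on stromal side genes.

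The 20 tested pan-mesenchymal genes went both ways, with a median of 0.03. The groups did not overlap in 7 that were higher and 9 that were lower in GA3T, where 27.5% and 26.8% of all tested genes did so. The 3 past the unadjusted threshold were lower: Fbln1 at 58937 and 53037 in GWTT and 29081 and 22973 in GA3T (-1.11), and the transcription factors Prrx1 (-1.17) and Twist2 (-1.50). Leaving out GWTT replicate 1, GWTT replicate 2 or GA3T replicate 2 left 1 lower. Of 19 contractile smooth muscle genes 0 passed the threshold (median 0.12), and 2 were lower without GA3T replicate 1. Acta2, which encodes smooth muscle actin, was at 7945 and 7497 against 11279 and 12421 (0.62; limma adjusted p = 0.142). Myh11, smooth muscle myosin, was at 9147 and 8784 against 7169 and 5570.0 (-0.50; 0.216). These 2 contractile genes thus lay on opposite sides of the GWTT libraries, neither by 2-fold.

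**Figure D3:**
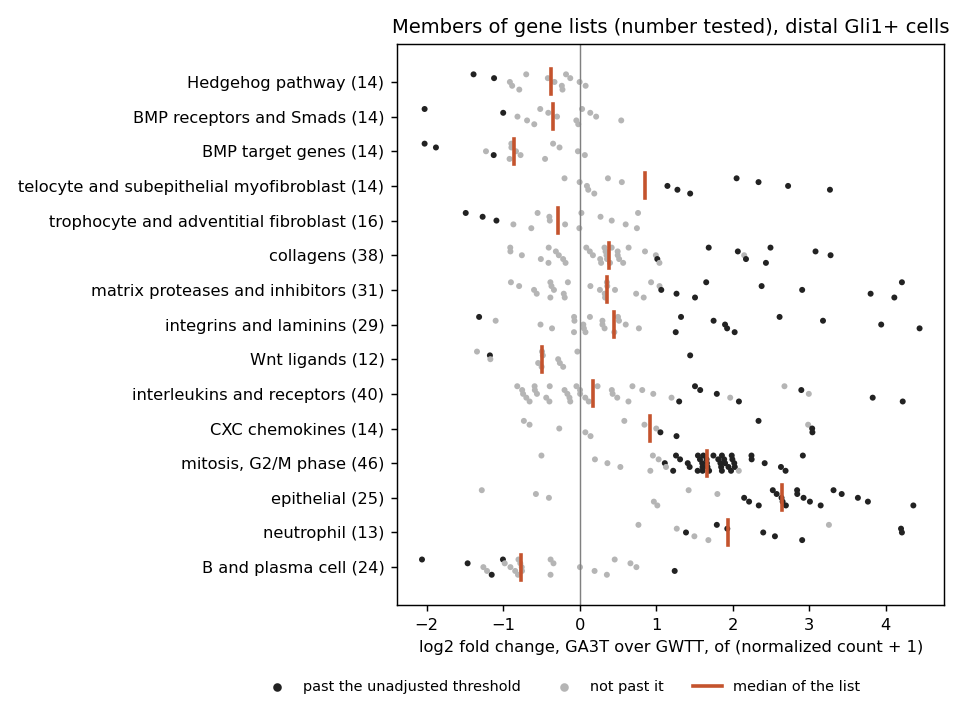
Log2 fold changes in distal GA3T over GWTT of the tested members of 15 gene lists, 1 point per gene, black where the gene passed the unadjusted threshold and red bars at the median of the list. Hedgehog and BMP target genes lie mostly left of 0 (medians -0.37 and -0.86), and telocyte, mitosis, epithelial and neutrophil genes lie mostly right of it (medians 0.85, 1.66, 2.64 and 1.93).

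Growth factors made by the stroma were examined by family. Among 12 Wnt ligands and processing genes the median was -0.49, or -0.24 without GA3T replicate 2 and -0.78, with 4 lower, without GA3T replicate 1. Wnt5a, a non-canonical ligand, was at 4125 and 4089 in GWTT and at 9346 and 13330 in GA3T (1.44, SE 0.20; limma adjusted p = 0.0947), and Wnt2b, a canonical ligand of crypt stroma, at 9587 and 8911 against 4741 and 3535 (-1.17, SE 0.18; 0.0961). Each was the single member past the unadjusted threshold in its direction. Of 12 R-spondins and Wnt antagonists, Frzb was higher (361 and 315 against 888 and 2204; 2.05; 0.131) and Sfrp4 lower (995 and 801 against 254 and 545; -1.26; 0.192). Without GA3T replicate 1 there were 2 higher and 0 lower, without GA3T replicate 2 there were 2 lower, and without GWTT replicate 1 there were 0 lower.

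EGF family ligands had 4 of 9 higher and 1 lower (median 0.92). The median was 0.09 without GA3T replicate 2, and the number higher was 2 without GWTT replicate 1. Of the 4, Nrg1 was on the stromal side and Areg (1.30) was shared, whereas Hbegf (1.79) and Tgfa (1.59) lay on the epithelial side. Of 22 FGF, HGF, IGF and PDGF genes 2 were higher and 1 lower (median 0.07), and without GA3T replicate 1 there were 4 higher and 3 lower. Igf1, insulin-like growth factor 1, was at 2637 and 3442 in GWTT and at 8160.4 and 16221 in GA3T (1.93, SE 0.35; limma adjusted p = 0.116), and Igfbp5, one of its binding proteins, at 17543 and 13198 against 32409 and 88275 (1.81, SE 0.50; 0.178). Pdgfd was lower (-1.08). In the TGF-beta and activin list (20 tested, median 0.13, and -0.03 without GA3T replicate 2) Inhba, the activin A subunit, was at 463 and 432 against 1296 and 2913 (2.12, SE 0.38; 0.116), Inhbb (1.11) and Ltbp2 (2.33) were also higher, and Ltbp4 (-1.23) and Tgfb3 (-1.05) were lower. Without GWTT replicate 2 or without GA3T replicate 2 there was 1 higher and there were 0 lower. For Igf1, Igfbp5 and Inhba the groups were separate and GA3T replicate 2 held the higher value.

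Positional and guidance genes gave few differences. Of 21 Hox genes 1 was higher and 2 lower (median -0.38). Only 3 of the 21 lay on the stromal side, and 4 lay on the epithelial side. The median was -0.14 without GA3T replicate 2, -0.20 without GWTT replicate 1 and -0.61, with 4 lower, without GA3T replicate 1. Hoxb13, a gene of the most posterior gut, was at 30.1 and 18.7 in GWTT and at 307 and 113 in GA3T (2.92; limma adjusted p = 0.128), and Hoxd13 (-1.32) and Hoxd10 (-1.51) were the lower ones. In 20 of the 21 Hox genes GA3T replicate 1 lay above replicate 2. Of 27 axon guidance ligands 2 were higher and 3 lower (median -0.03, and 0.15 after rescaling on stromal side genes), with 0 higher without GWTT replicate 1, 5 lower without GA3T replicate 1 and 1 each way without GA3T replicate 2. Bdnf, a neurotrophin, was at 3.35 and 6.61 against 31.6 and 186 (3.76; 0.163), Sema3e, a semaphorin, at 49.1 and 51.8 against 12.0 and 4.25 (-2.64; 0.156), and Ntn1, netrin 1, at 9583 and 8940 against 5763 and 1958 (-1.46; 0.225).

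The 13 tested cytokine and ligand genes that the study named for Gli1+ cells were chosen on these and related libraries, so that their direction is not independent evidence. Of them 5 were higher past the unadjusted threshold and 0 lower (median 1.28). The list pools genes that the study reported as higher in the knockouts with genes it reported as lower, among them Il6 and Il22. The median was 0.22 without GA3T replicate 2, 0.62 without GWTT replicate 1 and 2.12, with 8 higher, without GA3T replicate 1. Il11 was at 30.1 and 48.5 in GWTT and at 217 and 1420.4 in GA3T (3.83, SE 0.88; limma adjusted p = 0.146, DESeq2 adjusted p = 0.00756). Il1b was at 489 and 468 against 975 and 2083 (1.57, SE 0.36; 0.143 in limma), and Il1a at 43.5 and 43.0 against 138 and 250 (2.08, SE 0.38; 0.116). For all 3 the groups were separate, and GA3T replicate 2 was the higher library. Il17a was at 8.92 and 2.20 against 14.3 and 131 (2.99, SE 1.22; 0.279 in limma, 0.0311 in DESeq2). Its excess was carried almost wholly by GA3T replicate 2. Bmp7 and Wnt5a, given above, are the other 2 of the 5.

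The remaining members of that list did not pass. Il6 was at 547 and 867 in GWTT and at 627 and 1964 in GA3T, Il22 at 24.5 and 39.7 against 9.02 and 391, and Il17f at 0 and 11 against 2.25 and 55.3. In these 3 genes GA3T replicate 1 lay among or below the GWTT libraries and replicate 2 above them. Tgfb1 (0.32), Bmp5 (0.19), Il31ra (1.20) and Il9r (-0.59) did not pass either.

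Over the whole list of 40 tested interleukins and receptors 8 were higher and 0 lower (median 0.17), and without GA3T replicate 1 there were 14 higher and 3 lower. Il1rl1, the IL-33 receptor, was at 156 and 104 in GWTT and at 1260.4 and 4521 in GA3T (4.22, SE 0.61; limma adjusted p = 0.0947), and Il1rn, the IL-1 receptor antagonist, at 66.9 and 133 against 538 and 935 (2.89, SE 0.42; 0.0947). Of 14 CXC chemokines 5 were higher and 0 lower (median 0.92), with 2 higher without GWTT replicate 1 or without GA3T replicate 2 and 3 without GWTT replicate 2. Cxcl5, which recruits neutrophils, was at 248 and 208 against 682 and 5150.1 (3.04, SE 0.91; 0.193), and Cxcl13, which recruits B cells, at 884 and 837 against 1384 and 3084 (1.26; 0.19). Of 16 CC chemokines 3 were higher and 0 lower (median 0.25, and 0.04 without GA3T replicate 2), namely Ccl22 (1.85), Ccl28 (1.67) and Ccl6 (1.24). This list mixed sides, with 6 of the 16 on the stromal side and 3 on the epithelial side. Of 21 NF-kB subunits and feedback genes 1 was higher (Tnip3, 1.82; median 0.20), and all 21 were higher in GA3T replicate 2 than in replicate 1. Their median was -0.19 without replicate 2 and 0.72, with 4 higher, without replicate 1.

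Leukocyte markers also differed between these libraries. The 13 tested neutrophil markers were all above 0, 8 past the unadjusted threshold (median 1.93), and summed to 542 and 438 in GWTT and to 1801 and 3529 in GA3T. The number past was 4 without GA3T replicate 2 and 5 without GWTT replicate 2. Ly6g, which defines mouse neutrophils, was at 5.58 and 4.41 against 132 and 89.3 (4.20, SE 0.50; limma adjusted p = 0.0849), and Trem1 was at 0 in GWTT replicate 2. The 25 macrophage and monocyte markers had 1 higher and 2 lower and summed to 20862 and 19387 against 27218 and 25327. They had 4 higher without GWTT replicate 1, GA3T replicate 1 or GA3T replicate 2. GA3T replicate 2 exceeded replicate 1 in 24 of 26 T, NK and innate lymphoid markers and in 12 of the 13 cytokine and ligand genes of the study. In proximal goblet cells Il11 was at 0.158 and Cxcl5 at 0.0252 CPM. The part of leukocytes in the cytokine values was not tested.

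Cell cycle genes were mostly higher in GA3T. The study named 12 proliferation genes for these cells, chosen on these and related libraries and thus not independent evidence of their direction, and 10 of the 12 were higher past the unadjusted threshold (median 1.68). Cdk1, the mitotic kinase, was at 53.5 and 71.6 in GWTT and at 238 and 370.0 in GA3T (2.24, SE 0.32; limma adjusted p = 0.0947). Mki67, which encodes the proliferation antigen Ki-67, was at 313 and 607 against 1080.0 and 1559 (1.57, SE 0.35; 0.142), and Ccnb2, a cyclin of mitosis, at 51.3 and 82.6 against 251 and 274 (1.99, SE 0.31; 0.1). In all 12 the groups did not overlap and GA3T was higher, where 27.5% of all tested genes did so. Mcm2 (0.62) and Cdkn3 (1.13) did not pass. Over all 46 tested G2/M genes 37 were higher and 0 lower (median 1.66), and over 34 S phase genes 11 were higher and 0 lower (median 0.73). The S phase count was 5 without GWTT replicate 1 and 3 without GA3T replicate 2.

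The cell cycle genes lay on the epithelial side by the proximal libraries: all 12 named by the study, 43 of the 46 G2/M genes and 18 of the 34 S phase genes, with 0 of either list on the stromal side. Epithelial markers were higher in the same GA3T libraries, 18 of 25 past the unadjusted threshold (median 2.64). Epcam, an epithelial adhesion molecule, was at 167 and 480.3 in GWTT and at 2509 and 1271 in GA3T (2.65; limma adjusted p = 0.133), and Cdh1, E-cadherin, at 90.4 and 283 against 1716 and 976 (3.01; 0.121). Within GA3T the order of the 2 libraries was opposite. All 25 epithelial and all 17 goblet markers were higher in replicate 1, whereas all 12 proliferation genes and 43 of 46 G2/M genes were higher in replicate 2. Several leukocyte lists had the order of the cell cycle genes. Replicate 2 was higher in 24 of 26 T, NK and innate lymphoid, 23 of 24 B and plasma cell, 39 of 45 pan-leukocyte and 11 of 13 neutrophil markers. Replicate 1 was higher in 17 of 25 macrophage and monocyte and in 8 of 17 dendritic cell and MHC class II markers. The GA3T minus GWTT difference in CPM came to between 4.51% and 6.98% of the proximal goblet cell level for Epcam, Cdh1, Krt8, Lgals4 and Vil1. For the 12 proliferation genes it came to between 13.3% (Cdkn3) and 31.8% (Cdk1). Goblet cells are only 1 epithelial type, and the part of epithelial cells or leukocytes in the cell cycle values was not tested.

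**Figure D4:**
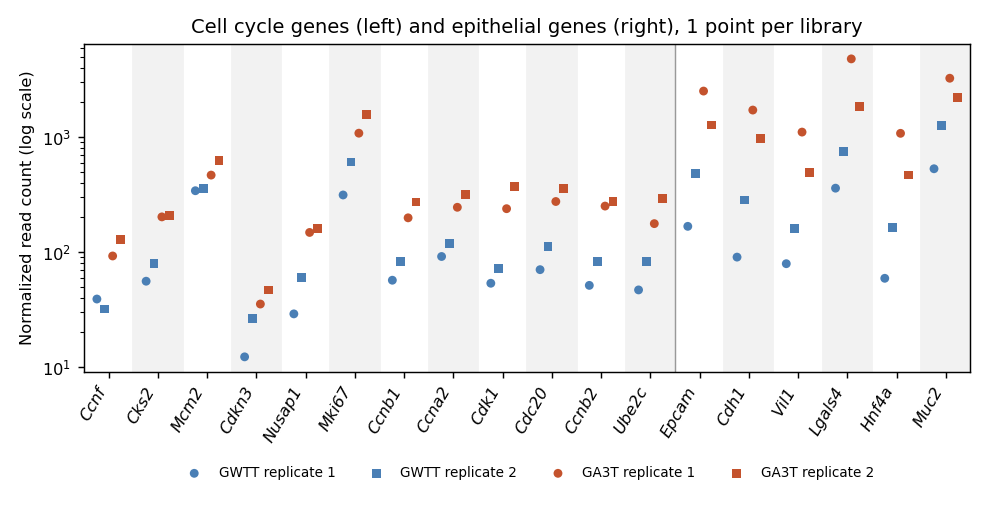
Normalized read counts (log scale) of the 12 proliferation genes named by the study (left of the line) and of 6 epithelial genes (right), 1 point per library, blue for GWTT and red for GA3T. In all 12 proliferation genes both GA3T libraries lie above both GWTT libraries with replicate 2 on top, whereas in the epithelial genes replicate 1 is on top. Of all tested genes, 27.5% had both GA3T libraries above both GWTT libraries.

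The epithelial side genes with the lowest p were Prom1, a membrane glycoprotein of progenitor cells, at 164 and 156 in GWTT and 770 and 730.4 in GA3T (2.22; limma adjusted p = 0.0539), Itga6, and the oxidase gene Duox2, at 22.3 and 28.6 against 248 and 273 (3.31; 0.0669). Of 17 goblet and secretory genes 8 were higher (median 1.35), with Muc2, the main colonic mucin, at 530 and 1251 against 3244 and 2219.9 (1.72; 0.157). Without GA3T replicate 1 the median was 0.49 with 3 higher and 2 lower, without GA3T replicate 2 it was 2.05, and without GWTT replicate 1 the number higher was 3. Palmd (-1.39), Dixdc1 (-1.14) and Cbr2 (-1.73) were among the 5 epithelial side genes that were lower. Of 24 B and plasma cell genes 4 were lower and 1, Sdc1 (1.24), was higher past the unadjusted threshold (median -0.77). Without GA3T replicate 1 the median was -0.02 with 4 higher and 3 lower, without GA3T replicate 2 it was -1.29 with 14 lower, and without GWTT replicate 2 the number lower was 2. Immunoglobulin and T cell receptor segments took 2.41% and 3.11% of reads in GWTT and 1.36% and 1.86% in GA3T, and 47 of the 195 tested segments were lower and 5 higher. Igkv1-117 was at 11718 and 9448 against 1642 and 2057 (-2.52, SE 0.18; 0.0539). Such segments follow the clones present in each mouse and are near-identical to others, so single segments are uncertain. Jchain, the joining chain of secreted antibodies, was at 63503 and 86956 against 31150 and 35946 (-1.15; 0.167).

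Other cell types were covered by shorter lists. Of 20 blood endothelial markers 1 was higher (Ecscr, 1.97), and of 9 pericyte and 6 lymphatic endothelial markers 0 passed the unadjusted threshold. Of 8 mesothelial and adipocyte markers 4 were lower and 0 higher (median -1.35). Upk3b, a mesothelial gene, was at 71.4 and 48.5 in GWTT and at 6.76 and 6.38 in GA3T (-2.98; limma adjusted p = 0.116), and Cfd, the adipocyte protease adipsin, at 43.5 and 35.3 against 0.752 and 1.06 (-4.40; 0.106). In both genes the GA3T libraries held only traces. Of 6 markers of interstitial cells of Cajal, the gut pacemaker cells, 2 were higher, Gja1 (1.11) and Thbs4 (2.61, an epithelial side gene). Of 5 enteric glia markers 1 was higher, Erbb3 (1.24, also epithelial side), and of 7 enteric neuron markers 1 was lower, Stmn2 (-3.12). Leaving out GWTT replicate 1 or GWTT replicate 2 gave 1 higher for the cells of Cajal and 0 for the glia and neurons. Without GA3T replicate 1 there were 4 lower blood endothelial markers.

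The same genotypes were also sorted from the proximal colon, in 4 further libraries normalized in their own table, and the difference between the segments was tested as an interaction in limma. The distal and the proximal comparison share no library, but the labels do not say whether both segments came from the same mice. By Ddx3y, a gene of the Y chromosome, replicate 1 of both proximal genotypes was male (2749 in GWTT and 1853 in GA3T) and replicate 2 female (0 in both), whereas both distal GWTT libraries were female. The model held no term for sex, and its part in the segment difference was not tested. Proximally, 931 of 15346 genes (6.07%) were higher and 520 (3.39%) lower past the unadjusted threshold. Of the 15301 genes tested for this difference, 0 were called at an adjusted p under 0.05, and 487 (3.18%) passed the unadjusted threshold, with the distal effect above the proximal in 145 (0.948%) and below it in 342 (2.24%). On the stromal side, set with these same proximal GWTT libraries, the distal effect was above in 40 and below in 134 of 2222 genes. The unadjusted count rested on single libraries, at 776 without distal GA3T replicate 1, 786 without proximal GWTT replicate 2, 754 without proximal GA3T replicate 1 and 309 without proximal GA3T replicate 2.

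The lowest adjusted p, 0.0995, was shared by 4 genes. Lama5 was at 418 and 485 in proximal GWTT and 5330 and 6651 in proximal GA3T, against the distal values above, and the distal effect minus the proximal effect was -2.40 on the log2 scale (SE 0.21). Foxl1 was at 261 and 280.1 in proximal GWTT and 879 and 1022 in proximal GA3T, and the same difference was -1.81 (SE 0.18). Bmp5 (difference -1.31, SE 0.14) and Spry1, an inhibitor of receptor tyrosine kinase signaling (-1.39, SE 0.13), were the other two. For Bmp7 it was -2.07 (SE 0.26; limma adjusted p = 0.174), and for Trpa1 -1.58 (0.444). Pianp was at a log2 fold change of -1.37 distally and 0.02 proximally (adjusted p of the difference 0.459). None of these differences passed at an adjusted p under 0.05.

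**Figure D5:**
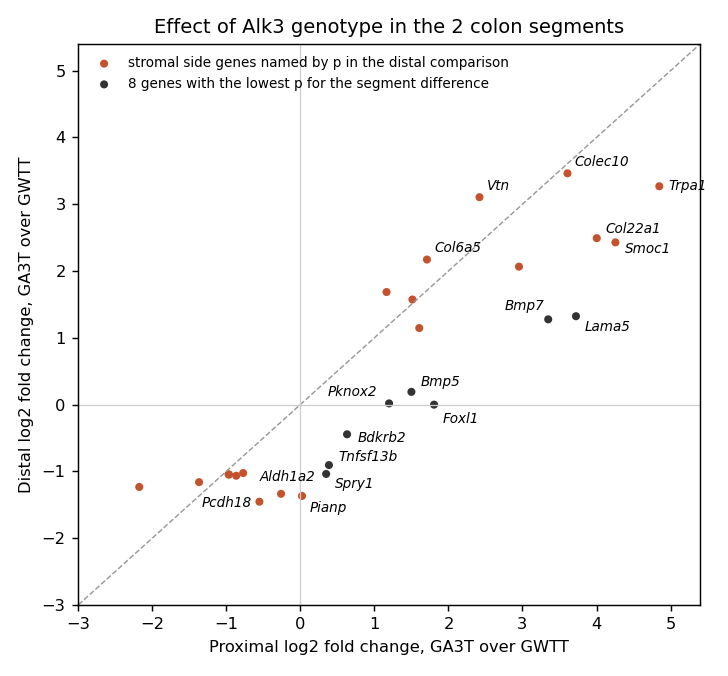
Log2 fold change of GA3T over GWTT in the distal colon (vertical) against the proximal colon (horizontal) for 19 stromal side genes of the distal comparison (red) and the 8 genes with the lowest p for the difference between segments (black), with the line of equality dashed. The black genes all lie below the line, as Lama5 at 1.32 distally and 3.72 proximally, and none of the differences passed an adjusted p under 0.05.

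Of the 91 stromal side genes higher distally past the unadjusted threshold, 57 were also higher past it proximally. That was 62.6% of the distal and 26.5% of the 215 proximal genes, where 9.68% of stromal side genes passed proximally. Of the 137 lower distally 62 were also lower proximally, 45.3% of the distal and 24.8% of the 250 proximal genes, against 11.3%. A proximal change of the same sign was found for 81 of the 91 and 130 of the 137, where 42.9% and 57.1% of all stromal side genes had a positive and a negative sign proximally. The proximal GWTT libraries that set the stromal side are also the controls of the proximal comparison. These proximal shares are therefore not independent of how the side was set. They may also not be independent of the distal libraries, since the labels do not say whether mice were shared. The 19 stromal side genes named above included Col6a5, higher in both segments (2.17 and 1.71), and Aldh1a2, at -1.34 distally and -0.26 proximally.

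In distal Gli1+ cells that lost Smad4 instead (GS4T, 2 libraries), the values of the same genes can only be set side by side, since the GS4T comparison uses the same GWTT libraries. Trpa1 had a log2 fold change of 3.30 in GS4T and 3.27 in GA3T, Smoc1 2.85 and 2.43, Colec10 3.04 and 3.46, and Pcdh18 -1.30 and -1.46. Il11 was at 5.22 and 3.83, Cdk1 at 2.57 and 2.24, and Wnt2b at -1.90 and -1.17. For Col6a5 the values were -1.02 in GS4T and 2.17 in GA3T, for Col23a1 -0.06 and 1.68, for Vtn 0.78 and 3.11, and for Prrx1 1.54 and -1.17. Bmpr1a was at -0.24 in GS4T and -0.69 in GA3T, and Smad4 at -0.96 and -0.30. No test of the difference between the knockouts was made.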

How the data were processed

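RNA from sorted Gli1+ cells was sequenced with 2 libraries per group. Per the labels, the authors aligned reads to mm10 with STAR 2.5.3, retained unique alignments, and used DESeq2 1.28.1 for normalization. The deposited values are a signal per gene, counts divided by 1 size factor per library. The counting program and strand setting are not given in the sources used here. Every value was a whole multiple of 1 step per library (100% within 0.1), so whole reads were recovered for edgeR 4.0.16 and DESeq2 1.42.0. Size factors were computed per table, so values are compared within a table.

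The main test was limma 3.58.1 (R 4.3.3) on log2(value + 1) with a trend, for genes with a mean of at least 10. Fold changes are on that scale and understate those of low genes. Adjusted p in parentheses after a fold change are limma's unless DESeq2 is named. Positions are from GENCODE M21 on GRCm38. Labels and columns set the groups.

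The members and lists were chosen with earlier results of these data known. Named were Bmpr1a, Smad4, Gli1, the genes the study labels for Gli1+ cells, 10 stromal side genes per direction and 3 per direction on the epithelial and leukocyte sides by lowest p at 2-fold or more, and the 2 highest and 2 lowest members of each list. Further members were named for their roles after their values were seen. The 8 genes of the segment comparison were taken by lowest p. The fits were tested on simulated data. Tables of the other groups were not used here, and some genes that the rule names are not reported here. Alternatives are in the closing section.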

Additional observations from a re-analysis of the deposited data

How the results depend on the processing

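The number of genes called by limma at an adjusted p under 0.05 and at least 2-fold was 0, and it was also 0 with a pseudocount of 0.1, with no filter, with a mean of at least 50, with the other scalings and in edgeR. It was 11 with a pseudocount of 10, 776 in DESeq2 (755 of them among the 1197 genes past the unadjusted threshold) and 33 with size factors from stromal side genes, an alternative chosen after seeing the data. Leaving out 1 library gave 0 to 583, the highest without GA3T replicate 1. The cause was not tested. The labels do not pair the replicate numbers, whose deviations had r = 0.191 over 15414 genes and 2 pairs. With a replicate block 62 genes were called, 61 of them among the 1197, and 1263 passed the unadjusted threshold. That count lay between 825 and 1278 with all 4 libraries. Bmpr1a stayed lower, from -0.74 to -0.51. The segment difference had 0 called genes in every setting run. For it, edgeR and DESeq2 were not run.

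Of the 148 genes named, 12 changed direction under some setting, as did Foxl1, which rounds to 0 and ran from -0.12 to 0.11 without 1 library and to 0.17 with size factors from stromal side genes. With size factors from stromal side genes Bmpr2 was at 0.16 and Smad5 at 0.13. Leaving out 1 library gave ranges of -0.11 to 0.17 for Acvr1, -0.2 to 0.16 for Bmpr2, -0.04 to 0.3 for Col3a1, -0.13 to 0.32 for F3, -0.25 to 1.74 for Grem1, -1.86 to 0.07 for Id1, -0.09 to 4.02 for Il17f, -1.69 to 3.61 for Il22, -0.14 to 1.51 for Il6, -1.45 to 0.27 for Il9r and -0.02 to 0.65 for Tgfb1. Neither these 11 genes nor Smad5 had passed the unadjusted threshold. Of 49 gene lists 20 changed the sign of their median under some setting. With 2 libraries per group, differences in genes whose replicates stand far apart could not be resolved.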
